A study of Mus musculus with 6 samples.

Results

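Nrf2, encoded by Nfe2l2, drives a set of antioxidant and detoxifying genes, and 10 of its pathway genes that are not glutathione S-transferases are described here in mouse liver. They were chosen by name and read from every probe set that the array's annotation gives to that gene alone: Nfe2l2, Keap1, Nqo1, Ephx1, Gclc, Gclm, Gsr, Txnrd1, Srxn1 and Hmox1. All 10 were on the array, as 18 of its 22626 probe sets that are not controls, and among 12393 genes with a symbol of their own. Swiss-Webster mice ate a diet with fraction 1 (hexane) or with fraction 2 (methanol) of Boswellia serrata, the tree that gives Indian frankincense, each as 1% of the diet for 21 days, or a control diet. Whole liver RNA of each of the 3 groups was measured on 2 Affymetrix MOE430A arrays. The labels give no sex, age or number of mice per array and do not say that replicates were separate animals, so each p-value reflects the spread among these 6 arrays alone, and that spread may be technical.

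In resting cells the Nrf2 protein is bound by Keap1 and sent for breakdown. Electrophiles and oxidants modify cysteines of Keap1, after which Nrf2 accumulates, pairs with small Maf proteins and binds antioxidant response elements near its target genes. The targets make and recycle glutathione (Gclc, Gclm, Gsr), keep thiols and peroxiredoxins reduced (Txnrd1, Srxn1), reduce quinones (Nqo1), open epoxides (Ephx1) and break down haem (Hmox1). In liver these enzymes take part in the handling of drugs and plant compounds, and Ephx1 is also a known target of the drug-sensing receptor CAR.

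The core of an antioxidant response element can be written as TGACNNNGC. It was looked for on both strands in the RefSeq promoter windows of build GRCm38.p6, which run from 250 bases before to 50 bases after a gene's start. The table held 9 windows for 7 of the 10 genes, and 4 windows of 4 genes (Nfe2l2, Gclm, Txnrd1, Srxn1) held the letters, against 12.4% of all 32851 windows. Gclc, Hmox1 and Gsr had no window in the table. The 3 stretches with a match before the start are shown on the gene's strand, because they are the binding letters of the factor whose gene and targets are described, with the match in capitals; in Gclm and Txnrd1 it reads on the other strand.
Nfe2l2, chr2:75704870-75704913, minus strand: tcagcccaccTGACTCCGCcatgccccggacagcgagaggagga
Gclm, chr3:122245398-122245456, plus strand: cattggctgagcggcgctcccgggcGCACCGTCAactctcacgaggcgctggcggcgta
Txnrd1, the middle of 3 listed starts, chr10:82859089-82859147, plus strand: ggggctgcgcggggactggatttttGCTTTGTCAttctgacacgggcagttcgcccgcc
The matches begin 240, 134 and 92 bases before the start of Nfe2l2, Gclm and Txnrd1. The match of Srxn1 begins 28 bases after its start. A match of letters is a description of these windows and does not show binding.

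Values are the authors' signal intensities in array units, on a linear scale. Differences were fitted on log2(signal + 16), so that those of dim probe sets are understated. Of the 18 probe sets, 16 were bright enough to be tested. Both left out belong to Txnrd1: they read 15.5 and 72.8, and 3.2 and 34.2, in fraction 1 livers, 11.6 and 33.9, and 29.1 and 2.7, in fraction 2 livers, and 12.2 and 8.6, and 3.6 and 7.9, in control livers. A gene with several tested probe sets is given by the brightest, and a call is an adjusted p under 0.05 (limma, Benjamini-Hochberg over 14755 probe sets).

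Some facts of the arrays are given before the values. Control replicate 1 and fraction 2 replicate a were hybridized and scanned on day 2, the other 4 arrays on day 1, so both fraction 1 arrays share a day. The arrays came from 3 chip lots, each with 2 arrays of different groups. RNA quality can be read from actin probes at both ends of the transcript: the 3' end was 3.87 times as bright as the 5' end in control replicate 2, and 2.13 to 2.64 times on the other 5 arrays. The same ratio for Gapdh was lowest on the arrays of day 2, at 1.07 in fraction 2 replicate a and 1.13 in control replicate 1, and 1.29 to 1.74 on the 4 arrays of day 1. The control arrays had a correlation of 0.941 over tested probe sets, less than the 0.971 of control replicate 1 with fraction 2 replicate a. Of 10 hepatocyte markers 9 were tested, and Alb, the serum albumin gene, read from 18755.0 to 27250.4 array units over the 6 arrays. No hepatocyte marker passed in either comparison with control (limma), though 1 for fraction 1 and 5 for fraction 2 had an unadjusted p under 0.05, with median log2 differences of -0.20 and -0.28. Nor did any tested endothelial (9), stellate cell and fibroblast (7), lymphocyte (4) or cholangiocyte (2) marker pass. At an unadjusted p under 0.05 there were 1, 2, 0 and 0 for fraction 1, and 0, 1, 0 and 1 for fraction 2. Among all genes 12.9% for fraction 1 and 7.23% for fraction 2 were under it. In the same order, the median log2 differences were -0.25, -0.48, -0.11 and -0.08 for fraction 1. For fraction 2 these medians were 0.06, -0.08, 0.01 and -0.58. The part of these markers in the values below was not tested.

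None of the 10 genes passed the test in any comparison. In fraction 1 livers the widest differences from control were those of Gsr, glutathione reductase, at 2.09-fold, Nqo1, NAD(P)H quinone dehydrogenase, at 1.82-fold, and Ephx1, microsomal epoxide hydrolase, at 1.51-fold. In fraction 2 livers they were those of Gsr at 1.60-fold, Gclc, the catalytic subunit of glutamate-cysteine ligase, at 1.48-fold, and Ephx1 at 1.43-fold. A further Gsr probe set stood at 1.03-fold for fraction 1 and 1.04-fold for fraction 2. Hmox1, the inducible haem oxygenase, stood at 0.985-fold in fraction 1 livers and at 1.07-fold in fraction 2 livers.

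Against control, 0 of 10 genes were called in fraction 1 livers, where 0.738% of 9209 tested genes were called, and 0 of 10 in fraction 2 livers, where 0.119% were. Without adjustment, 3 genes had p under 0.05 and were higher in fraction 1 livers (Nqo1, Gsr, Ephx1), against 5.79% of all genes. In fraction 2 livers 3 genes did so (Gclc, Gsr, Ephx1), against 3.31%. Both arrays lay above both control arrays for 5 of 10 genes in fraction 1 livers, against 18.6% of all genes, and for 7 of 10 in fraction 2 livers, against 14.6%. Gsr is in each count at an unadjusted p under 0.05 and each count of arrays above control. It is there by a probe set that the fraction arrays made the brighter of 2. The other Gsr probe set overlapped control and stood at 0.04 on the log2 scale for fraction 1 and 0.05 for fraction 2. The median log2 difference of the 10 genes was 0.24 in fraction 1 livers and 0.29 in fraction 2 livers, where all genes stood at -0.03 and -0.05. The 2 comparisons share their control arrays.

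With both fractions set together against control, 0 of 10 genes were called, against 0.217% of all genes. At an unadjusted p under 0.05 there were 4 (Nqo1, Gclc, Gsr, Ephx1), all higher, against 4.68%. All 4 fraction arrays lay above both control arrays for Keap1, Nqo1, Srxn1, Gsr and Ephx1, 5 of 10 genes, against 7.85% of all genes. Gsr had the lowest adjusted p of the 10 genes (0.0964, limma). Its other probe set overlapped control and stood at 0.05 on the log2 scale (adjusted p = 0.978, limma).

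**Figure D1:**
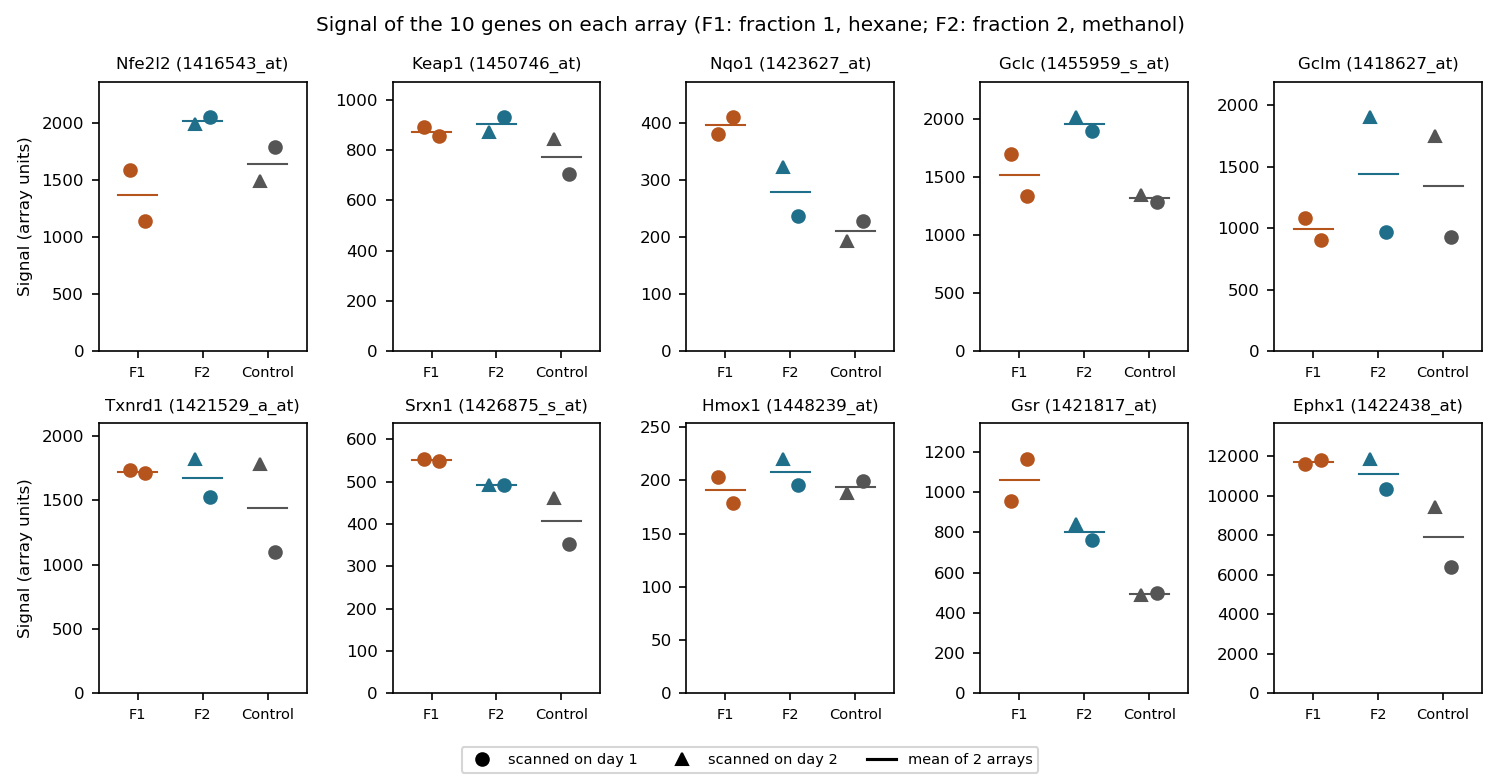
Signal in array units (linear axis from 0) of each of the 10 genes on the 6 arrays, with the brightest probe set per gene; points are arrays, round if scanned on day 1 and triangular on day 2, and lines are means of 2 arrays. Gsr, Nqo1, Srxn1, Keap1 and Ephx1 lie above both control arrays on all 4 fraction arrays, and Gclm is high on the 2 triangular points.

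The regulators come first. Nfe2l2 read 1591.3 and 1142.2 array units in fraction 1 livers, 1986.5 and 2053.6 in fraction 2 livers, and 1488.2 and 1784.4 in control livers. Both fraction 2 arrays lay above the other 4, while fraction 1 and control overlapped. Its log2 difference was -0.27 ± 0.21 (SE) for fraction 1 (adjusted p = 0.662, limma) and 0.31 ± 0.21 for fraction 2 (adjusted p = 0.793). Within day 1 these were -0.40 and 0.20, and within day 2 fraction 2 stood at 0.41.

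Keap1, the adaptor that targets Nrf2 for breakdown, read 890.2 and 854.4 array units in fraction 1 livers, 873.2 and 932.1 in fraction 2 livers, and 844.3 and 702.6 in control livers. The lowest fraction array was 10 units above the higher control array. The log2 difference was 0.18 ± 0.19 (SE) for fraction 1 (adjusted p = 0.773, limma) and 0.22 ± 0.19 for fraction 2 (adjusted p = 0.819). Without control replicate 1 these were 0.31 and 0.35, and without control replicate 2 they were 0.05 and 0.09. A dimmer probe set of Keap1 read 50.6 array units in control replicate 2 and 85.3 to 113.6 on the other 5 arrays, so there the fraction 1 and control groups overlapped.

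Among the enzymes that act on foreign compounds, Nqo1 reduces quinones by transfer of 2 electrons. It read 381.7 and 411.4 array units in fraction 1 livers, 323.2 and 237.2 in fraction 2 livers, and 194.2 and 228.2 in control livers. The fraction 1 arrays were the highest, and fraction 2 replicate b was close to control replicate 2. The log2 difference was 0.86 ± 0.23 (SE) for fraction 1 (95% interval 0.35 to 1.38, adjusted p = 0.152, limma) and 0.37 ± 0.23 for fraction 2 (-0.15 to 0.89, adjusted p = 0.787). Within day 1 fraction 1 stood at 0.76. Fraction 2 stood at 0.05 within day 1 and at 0.69 within day 2, each 1 array against 1 array.

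Ephx1 hydrolyses epoxides of drugs and dietary compounds. It read 11602.1 and 11789.3 array units in fraction 1 livers, 11869.9 and 10348.5 in fraction 2 livers, and 9410.6 and 6395.1 in control livers. The 4 fraction arrays were close together and the control arrays were apart, with control replicate 2 lowest. The log2 difference was 0.59 ± 0.18 (SE) for fraction 1 (95% interval 0.17 to 1.01, adjusted p = 0.218, limma) and 0.51 ± 0.18 for fraction 2 (0.10 to 0.93, adjusted p = 0.647). Without control replicate 1 the fraction 1 value was 0.87 (adjusted p = 0.0357), which passed, and without control replicate 2 it was 0.31 (adjusted p = 0.276). For fraction 2 the same omissions gave 0.79 (adjusted p = 0.0768) and 0.24 (adjusted p = 0.796). Within day 1 fraction 1 stood at 0.87. Fraction 2 stood at 0.69 within day 1 and at 0.33 within day 2.

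Glutathione synthesis starts with glutamate-cysteine ligase, made of the catalytic subunit Gclc and the modifier subunit Gclm. The brighter Gclc probe set, of a type that can match several transcripts, read 1702.1 and 1338.0 array units in fraction 1 livers, 2023.0 and 1904.1 in fraction 2 livers, and 1348.8 and 1290.9 in control livers. Both fraction 2 arrays were the highest, and fraction 1 replicate b lay between the control arrays. On the log2 scale the difference was 0.19 ± 0.18 (SE) for fraction 1 (95% interval -0.22 to 0.61, adjusted p = 0.741, limma) and 0.57 ± 0.18 for fraction 2 (0.15 to 0.98, adjusted p = 0.595). Fraction 2 stood at 0.56 within day 1 and at 0.58 within day 2.

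The other Gclc probe set gave another picture. It read 638.0 and 598.2 array units in fraction 1 livers, 1820.5 and 963.7 in fraction 2 livers, and 1483.0 and 577.6 in control livers. The 2 arrays of day 2 were the highest whichever diet they came from. Its log2 difference was -0.57 ± 0.43 (SE) for fraction 1 (adjusted p = 0.655, limma) and 0.51 ± 0.43 for fraction 2 (adjusted p = 0.820). Within day 1 these were 0.09 and 0.72, and within day 2 fraction 2 stood at 0.29.

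Gclm followed the same split. It read 1085.3 and 904.3 array units in fraction 1 livers, 1908.6 and 972.5 in fraction 2 livers, and 1754.9 and 931.5 in control livers. The 4 arrays of day 1 lay between 904.3 and 1085.3, and both arrays of day 2 above them, at 1908.6 in fraction 2 livers and 1754.9 in control livers. The log2 difference was -0.36 ± 0.37 (SE) for fraction 1 (95% interval -1.2 to 0.47, adjusted p = 0.760, limma) and 0.09 ± 0.37 for fraction 2 (-0.75 to 0.93, adjusted p = 0.962). Within day 1 the fractions stood at 0.09 and 0.06, and within day 2 fraction 2 stood at 0.12. With scan day as a block the value of fraction 1 was 0.10.

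Gsr returns oxidized glutathione to its reduced form at the cost of NADPH. Its brighter probe set read 954.3 and 1166.6 array units in fraction 1 livers, 843.7 and 761.1 in fraction 2 livers, and 489.7 and 501.2 in control livers. The 3 groups did not overlap, with fraction 1 highest and the control arrays within 12 array units of each other. The log2 difference was 1.07 ± 0.19 (SE) for fraction 1 (95% interval 0.63 to 1.5, adjusted p = 0.0538, limma), just short of the threshold, and 0.68 ± 0.19 for fraction 2 (0.24 to 1.11, adjusted p = 0.535). Within day 1 these were 1.05 and 0.59, and within day 2 fraction 2 stood at 0.77. With a stricter filter on dim probe sets (at least 2 arrays at or above the 60th percentile), which tests fewer of them, the fraction 1 value passed (1.07, adjusted p = 0.0416).

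The dimmer Gsr probe set read 676.6 and 556.1 array units in fraction 1 livers, 839.4 and 454.2 in fraction 2 livers, and 769.7 and 461.3 in control livers. Here too both arrays of day 2 were the highest, and the diet groups overlapped. By the mean of the control arrays this probe set was the brighter, at 615.5 against 495.4 array units. The fraction arrays thus decided which probe set stands for Gsr. Its log2 difference was 0.04 ± 0.33 (SE) for fraction 1 (adjusted p = 0.979, limma) and 0.05 ± 0.33 for fraction 2 (adjusted p = 0.978). The 2 probe sets of Gsr, like those of Gclc, therefore did not give the same values of 1 gene, and where their probes lie in the transcripts is not given in the sources used here.

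**Figure D2:**
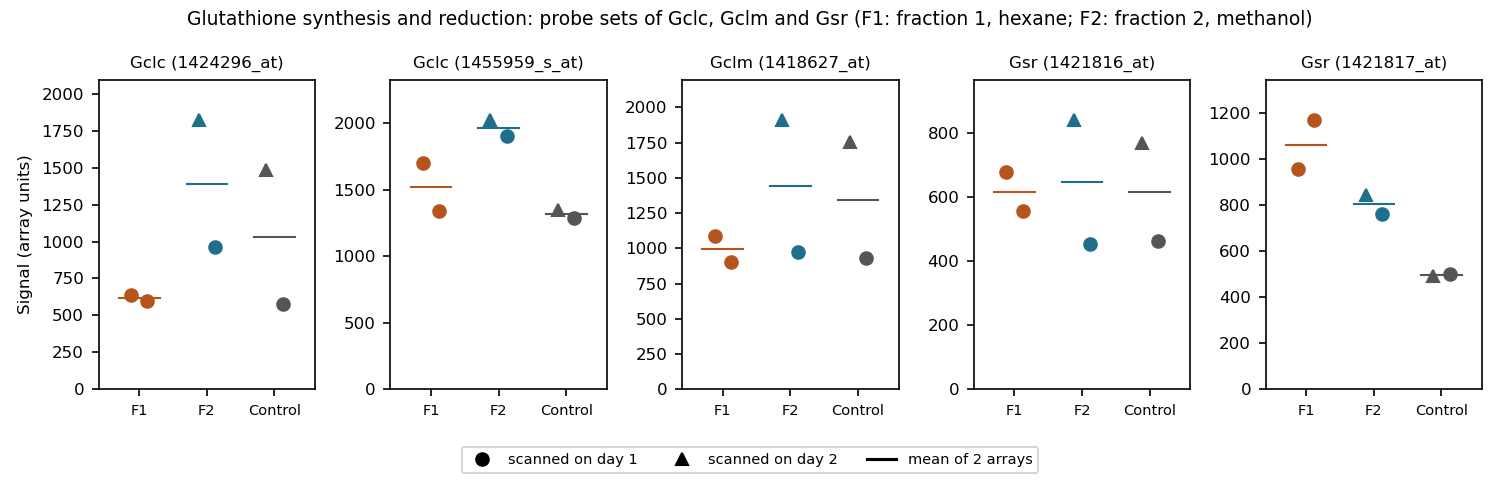
Signal in array units (linear axis from 0) of both probe sets of Gclc and of Gsr and of the 1 probe set of Gclm on the 6 arrays; points are arrays, round if scanned on day 1 and triangular on day 2, and lines are means of 2 arrays. In the dimmer probe sets of Gclc and Gsr and in Gclm both triangular points lie above all round points, and in the brighter Gsr probe set the 3 diet groups are apart.

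The remaining thiol enzymes are Txnrd1, the cytosolic thioredoxin reductase, and Srxn1, sulfiredoxin, which restores overoxidized peroxiredoxins. Txnrd1 read 1734.6 and 1709.3 array units in fraction 1 livers, 1824.1 and 1529.1 in fraction 2 livers, and 1783.2 and 1096.3 in control livers. Only control replicate 2 stood apart, below the other 5 arrays. Its difference on the log2 scale was 0.30 ± 0.24 (SE) for fraction 1 (adjusted p = 0.686, limma) and 0.25 ± 0.24 for fraction 2 (adjusted p = 0.835). Without control replicate 2 these were -0.05 and -0.09.

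Srxn1 had 4 tested probe sets. The brightest, of a type that can match several transcripts, read 553.9 and 548.3 array units in fraction 1 livers, 491.6 and 491.5 in fraction 2 livers, and 461.6 and 351.7 in control livers. The groups did not overlap, but the gap between fraction 2 and the higher control array was smaller than that between the control arrays. On the log2 scale the difference was 0.44 ± 0.20 (SE) for fraction 1 (95% interval -0.03 to 0.90, adjusted p = 0.438, limma) and 0.28 ± 0.20 for fraction 2 (-0.19 to 0.74, adjusted p = 0.800). Within day 1 these were 0.63 and 0.46, and within day 2 fraction 2 stood at 0.09.

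Another Srxn1 probe set read 420.8 and 614.6 array units in fraction 1 livers, 484.5 and 380.8 in fraction 2 livers, and 322.9 and 166.0 in control livers. All 4 fraction arrays lay above both control arrays. Its log2 difference was 1.08 ± 0.32 (SE) for fraction 1 (adjusted p = 0.208, limma) and 0.84 ± 0.32 for fraction 2 (adjusted p = 0.673). Within day 1 these were 1.53 and 1.12, and within day 2 fraction 2 stood at 0.56. The other 2, at 109.1 to 290.6 array units, had differences of 0.06 and 0.37 for fraction 1 and of 0.29 and 0.43 for fraction 2. For fraction 2 within day 2 they stood at -0.12 and 0.69. All 4 probe sets had values above 0 in both comparisons, from 0.06 to 1.08, but they read 1 gene on the same arrays. Of all genes, 46.3% lay above 0 for fraction 1 and 43.1% for fraction 2.

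Hmox1 splits haem into biliverdin, iron and carbon monoxide, and macrophages that take up red cells also carry it. It read 203.4 and 178.8 array units in fraction 1 livers, 220.2 and 195.9 in fraction 2 livers, and 188.3 and 199.7 in control livers. The 3 groups overlapped. Its difference on the log2 scale was -0.02 ± 0.22 (SE) for fraction 1 (95% interval -0.53 to 0.49, adjusted p = 0.981, limma) and 0.09 ± 0.22 for fraction 2 (-0.42 to 0.60, adjusted p = 0.941). Of 12 Kupffer cell and macrophage markers 11 were tested and 0 passed in either comparison, with 2 at an unadjusted p under 0.05 in fraction 1 livers and 0 in fraction 2 livers (limma). Among all genes 12.9% for fraction 1 and 7.23% for fraction 2 were under that p. The markers had median log2 differences of -0.19 for fraction 1 and -0.06 for fraction 2. Their summed signal was 9055.6 and 9529.0 array units in fraction 1 livers, 9856.2 and 10754.9 in fraction 2 livers, and 10173.2 and 11283.6 in control livers, and its part in the Hmox1 values was not tested. In whole liver, fewer cells of a type and less RNA per cell cannot be told apart.

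**Figure D3:**
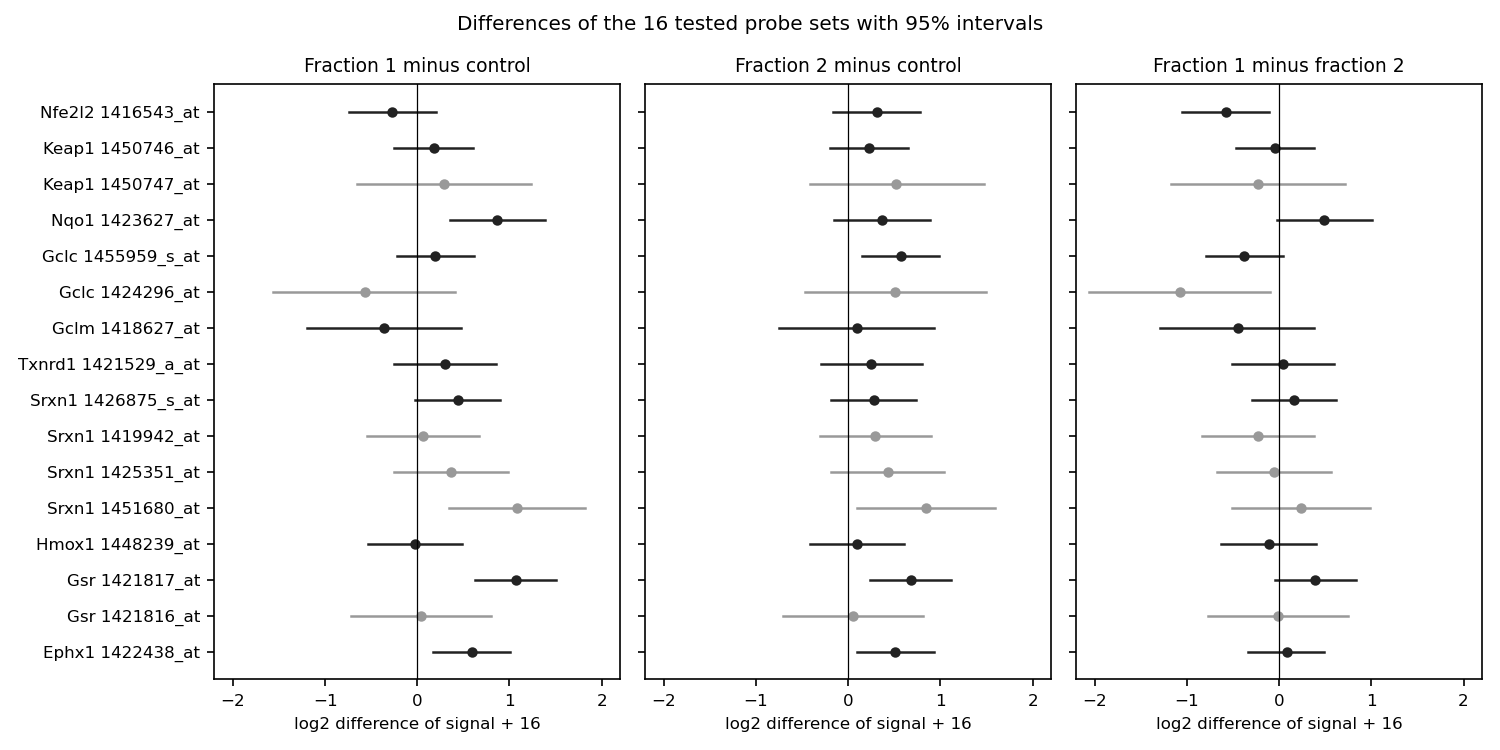
Log2 difference of signal + 16 (horizontal axis) for the 16 tested probe sets (rows); points are limma estimates over 6 arrays and lines 95% intervals, black for the probe set that stands for its gene and grey for the others. For fraction 1 minus control, the intervals of Gsr (0.63 to 1.5), Nqo1, Ephx1 and 1 grey Srxn1 probe set lie above 0, before adjustment for the number of probe sets.

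The fractions were also set against each other, to ask whether the hexane and the methanol fraction differed in these genes. Again 0 of 10 genes passed, as did 0% of all 9209 genes, and 1 gene, Nfe2l2, had an unadjusted p under 0.05 on the lower side, against 4.18% of all genes. Nfe2l2 stood at -0.58 ± 0.21 (SE) on the log2 scale for fraction 1 minus fraction 2 (95% interval -1.05 to -0.11, adjusted p = 0.539, limma). It was -0.34 without fraction 1 replicate b and -0.81 without fraction 1 replicate a. Nqo1 stood at 0.49 ± 0.23 (-0.02 to 1.01, adjusted p = 0.628) and Gsr at 0.39 ± 0.19 (-0.05 to 0.83, adjusted p = 0.642). The dimmer Gsr probe set stood at -0.01. Gclc stood at -0.38 ± 0.18 (-0.79 to 0.04, adjusted p = 0.636). The dimmer Gclc probe set stood at -1.08 ± 0.43 (-2.06 to -0.1, adjusted p = 0.594, limma). That probe set was highest on the arrays of day 2, and both fraction 1 arrays are of day 1. Of the 10 intervals, that of Gclm was the widest, at -1.29 to 0.38, and that of Ephx1 ran from -0.34 to 0.49. These intervals leave room for differences of either size within them, and a missed threshold does not show that the fractions act alike.

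The split by day seen in Gclc, Gclm and Gsr was then measured across all probe sets, after these values had been seen. Day 2 minus day 1, fitted beside the diet groups, was 1.12 ± 0.17 (SE) on the log2 scale for the dimmer Gclc probe set (adjusted p = 0.0994, limma), 0.93 ± 0.16 for Gclm (adjusted p = 0.129) and 0.79 ± 0.17 for the dimmer Gsr probe set (adjusted p = 0.159). None passed, and 0% of all genes were called, while 6.14% of all genes and 3 of the 10 (Gclm, Txnrd1 at 0.47, Ephx1 at 0.38) were higher on day 2 at an unadjusted p under 0.05. Both arrays of day 2 lay above all 4 of day 1 for 4 of the 16 probe sets, the 3 named and that of Txnrd1, against 12.3% of 14755. The brighter probe sets of Gclc (0.07 ± 0.16) and Gsr (0.06 ± 0.17) did not show it. Whether day, chip lot or the samples themselves carry this split cannot be told apart, since the 2 arrays of day 2 are also those of 1 chip lot. The Gapdh 3'/5' ratio divides the arrays in the same way, at 1.07 and 1.13 on day 2 and 1.29 to 1.74 on day 1, and its part in the split, and in the disagreement between probe sets of 1 gene, was not tested.

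Other genes of the pathway were followed in 7 lists, with 71 of 90 genes tested. In fraction 1 livers 3 rose, 0 fell and 68 did not pass, and in fraction 2 livers 0 rose, 0 fell and 71 did not pass (limma). Of all tested genes 0.738% and 0.119% were called. At an unadjusted p under 0.05 there were 20 of 71 for fraction 1, against 12.9% of all genes in either direction, and 11 of 71 for fraction 2, against 7.23%. Both counts include Cdkn1a and Cbr3, which passed the filter on dim probe sets only through the fraction arrays. No conclusion is drawn from either gene. The median log2 difference of the 71 genes was 0.03 for fraction 1 and 0.08 for fraction 2, where all genes stood at -0.03 and -0.05. The 3 that rose were Blvrb and Slc48a1 of haem handling and Ugdh, which makes the UDP-glucuronic acid used in conjugation.

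Among 8 tested genes of haem breakdown and iron storage, 2 rose in fraction 1 livers and 6 did not pass, with a median of 0.18. Slc48a1, a haem transporter of endosomes and lysosomes, read 2228.5 and 2051.9 array units in fraction 1 livers, 1439.3 and 1432.5 in fraction 2 livers, and 894.4 and 943.3 in control livers. The 3 groups did not overlap, and fraction 1 rose by 1.2 ± 0.17 (SE) on the log2 scale (adjusted p = 0.0266, limma). Blvrb, biliverdin reductase B, read 3211.2 and 3782.9 array units in fraction 1 livers, 2671.8 and 2491.3 in fraction 2 livers, and 1620.8 and 1887.9 in control livers. It rose by 0.99 ± 0.17 in fraction 1 livers (adjusted p = 0.0498), a call lost in 15 of 17 alternatives, among them whichever array was left out. The call of Slc48a1 was lost in 8 of 17, among them when any 1 array but control replicate 1 was left out. Fraction 2 stood at 0.64 (adjusted p = 0.492) for Slc48a1 and at 0.56 (adjusted p = 0.543) for Blvrb.

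Blood in the tissue is a further source of haem genes. Alas2, the erythroid enzyme of haem synthesis and the only tested one of 5 erythroid and blood markers, read 793.0 and 723.3 array units in fraction 1 livers, 2656.1 and 1502.2 in fraction 2 livers, and 2243.8 and 2609.9 in control livers. It fell by 1.66 on the log2 scale in fraction 1 livers (adjusted p = 0.0384, limma), opposite in sign to Slc48a1 and Blvrb there, and its part in their values was not tested.

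Of 14 tested enzymes of foreign compounds and carbonyls, Ugdh rose in fraction 1 livers and 13 did not pass, with a median of 0.14. For fraction 1, 7 of the 14 lay above 0. At an unadjusted p under 0.05, in either direction, there were 7 for fraction 1 and 4 for fraction 2 (limma). Among all genes 12.9% and 7.23% were under it. Cbr3 is in both counts, and its control arrays read 73.8 and 25.7 array units, under their cuts of 93.5 and 116.3. It passed the filter only through the fraction arrays, so no conclusion is drawn from it. Ugdh read 4990.7 and 5106.2 array units in fraction 1 livers, 4731.4 and 3893.0 in fraction 2 livers, and 2331.8 and 1551.0 in control livers. It rose by 1.40 ± 0.21 (SE) in fraction 1 livers (adjusted p = 0.0334, limma), a call lost in 9 of 17 alternatives, among them when any 1 array but control replicate 1 was left out. In fraction 2 livers it stood at 1.17 (adjusted p = 0.202).

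In the other lists no gene passed in either comparison with control. Among 12 tested genes of glutathione supply and use, with medians of 0.07 for fraction 1 and 0.08 for fraction 2, Gpx4, which reduces lipid peroxides, read 10732.0 and 7284.2 array units in fraction 1 livers, 8684.5 and 8893.7 in fraction 2 livers, and 4853.5 and 4245.9 in control livers. Both fraction groups lay above the control arrays, with differences of 0.96 (adjusted p = 0.0719, limma) and 0.95 (adjusted p = 0.300). The Gpx4 probe set is of a type that can match several transcripts. In the same list Glo1, which detoxifies methylglyoxal, stood at -0.57 and 0.05, and Ggct, of glutathione breakdown, at 0.89 and 0.51. Among 12 thioredoxin and peroxiredoxin genes, with medians of 0.05 and 0.20, Prdx4, the peroxiredoxin of the endoplasmic reticulum, stood at -0.67 (adjusted p = 0.101) and -0.46 (adjusted p = 0.600). Txn1, thioredoxin itself, stood at 0.42 and 0.15, and Prdx2 at 0.18 and 0.33.

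Among 13 partners and regulators of Nrf2, with medians of 0.16 and 0.02, Cdkn1a, a cell cycle inhibitor whose product is known to bind Nrf2, stood at 1.11 in both comparisons (adjusted p = 0.346 and 0.673, limma). Cdkn1a passed the filter on dim probe sets only through the 4 fraction arrays. Its control arrays read 91.8 and 43.9 array units, under their cuts of 93.5 and 116.3, so no conclusion is drawn from its difference. Mafk, a small Maf partner, stood at 0.57 and -0.01, and Pgam5, a mitochondrial binding partner of Keap1, at 0.21 and 0.61. Among 8 genes of NADPH supply, both medians were -0.02, and Pgd, of the pentose phosphate pathway, stood at 0.80 (adjusted p = 0.199) and 0.12. The Pgd probe set is of a type that can match several transcripts. Nnt, the mitochondrial transhydrogenase, stood at -0.38 and -0.14, and Taldo1 at -0.36 and -0.06. Of 4 superoxide dismutases and catalase, with medians of -0.13 and -0.08, catalase (Cat) stood at -0.21 and -0.12, Sod1 at -0.06 and -0.22, and Sod3 at -0.36 and 0.08.

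The glutathione S-transferases, also known targets of Nrf2, are given beside the 10 genes. Of 19 tested, 5 rose in fraction 1 livers (Gsta2, Gstm2, Gstm3, Gstm4, Gstt3) and 2 in fraction 2 livers (Gstm2, Gstm3), against 0 of 10 of the genes described here in either. Of all tested genes 0.738% and 0.119% were called. Gstm2 for fraction 2 was close to the threshold (adjusted p = 0.0488, limma). Whether the transferase calls hold in the alternative runs was not examined. The medians of the whole groups were closer, at 0.20 and 0.31 for the transferases and 0.24 and 0.29 for the 10 genes. Gstm3, by a probe set of a type that can match several transcripts, read 18174.5 and 16059.9 array units in fraction 1 livers, 15673.9 and 14697.0 in fraction 2 livers, and 5042.3 and 4182.4 in control livers. The difference between the groups of genes was not tested.

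**Figure D4:**
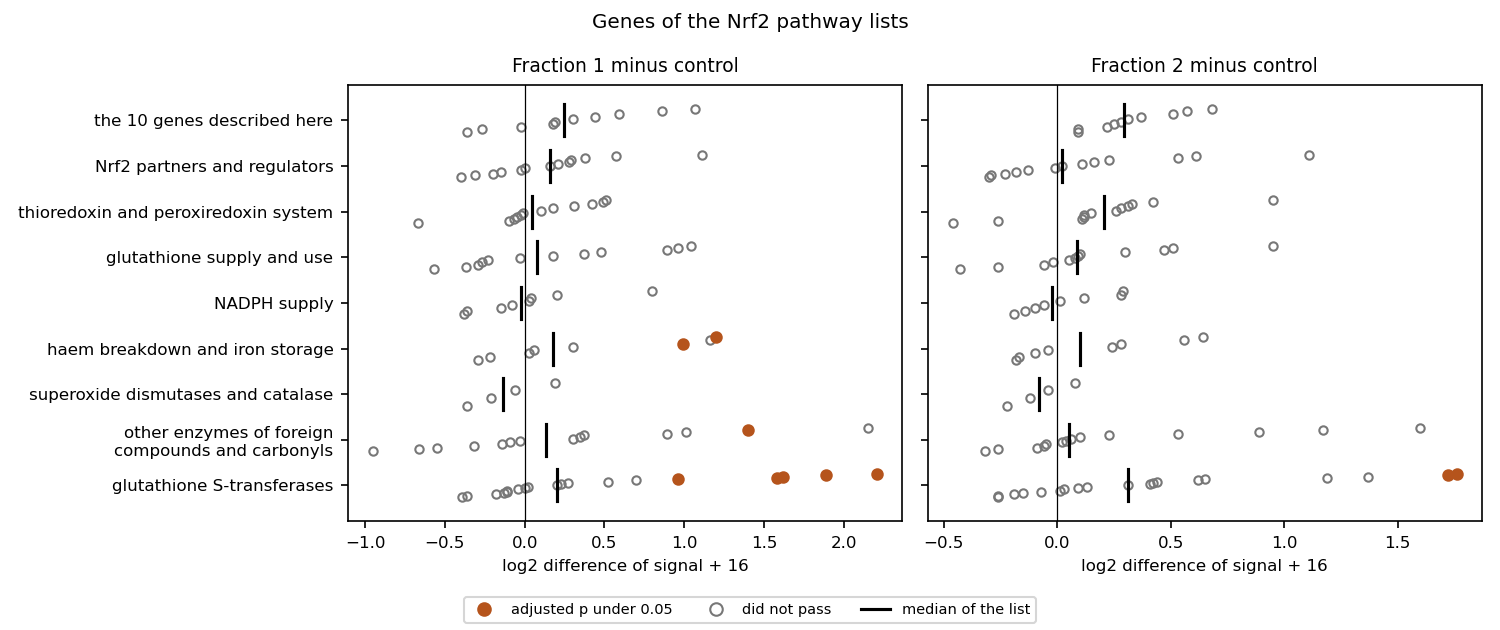
Log2 difference of signal + 16 from control (horizontal axis) for each tested gene of the 10 described here, of 7 lists of other pathway genes and of the glutathione S-transferases (rows), in fraction 1 livers (left) and fraction 2 livers (right); filled points have an adjusted p under 0.05 and bars are medians. Filled points are 2 haem genes, Ugdh and 5 transferases for fraction 1, and 2 transferases for fraction 2.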

How the data were processed

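The deposited table held 1 signal intensity per probe set and array on a linear scale, scaled by the authors: after trimming 2% of probe sets at either end, array means differed by at most 0.082%. Which software made it is not given in the sources used here. The table has no detection calls. Symbols came from the platform annotation, of which 20351 matched RefSeq by Entrez ID (20380 probe sets with 1 symbol, 691 with several, 1555 with none; 64 controls were left out).

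Testing required 2 or more arrays at or above their own 40th percentile. The 6 arrays were fitted together in R 4.3.3 with limma 3.58.1 (lmFit, eBayes with a variance trend; 3 residual and 5.43 prior degrees of freedom), two-sided. Scan days and chip lots came from the experiment files. Named were all 10 genes and, per list, each gene that passed or else the 3 with the smallest p. Cbr3 was also named, for its dim control arrays. The genes, lists, tests and alternatives were chosen with earlier results of these data known. The fits were also run on simulated data with independent noise. That simulation held no effect of day, chip lot or RNA quality, so it was not a test of those. Alternatives changed the scaling, pseudocount, filter, variance trend, blocks, probe set or arrays; the scan day comparison and the count over every probe set were added after seeing the data. The number of arrays limits the precision. Figures used Python 3.11.15 and matplotlib 3.10.9.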

Additional observations from a re-analysis of the deposited data

How the results depend on the processing

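The median standard error of a log2 difference was 0.25 over all probe sets, so differences well under 2-fold are within reach of the error with 2 arrays a group. Where an array was left out, the lone array of its group was taken to vary as the other groups do.

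Gene counts first: of the 10 genes, 1 passed for fraction 1 minus control with a filter at the 60th percentile, from 0 to 1 whichever array was left out, and from 0 to 1 for both fractions minus control; in every other alternative run the count stayed at 0, also with every probe set counted. The 105 probe sets called for fraction 1 minus control became 48 with median centring, 27 with no filter, 12 with no variance trend, 66 with day 1 alone, 39 with only the groups compared, and 14 to 149 with an array left out. The 16 for fraction 2 minus control became 10 with no filter, 2 with no variance trend, 10 with chip lot as a block, 4 with day 1 alone, 9 with only the groups compared, and 3 to 28 with an array left out. The 2 between the fractions became 0 with quantile normalization, median centring, a pseudocount of 1, no filter, no variance trend, scan day as a block or day 1 alone, 16 with chip lot as a block, and 0 to 11 with an array left out. With the replicate letters as a block (replicate block) there were 75, but 0 of the 10 genes; the labels do not say that a letter marks a shared animal or batch, and deviations of same-lettered arrays had r = 0.03, though the b arrays share a chip lot and a scan day. The 31 for both fractions minus control became 18 with no filter, 16 with no variance trend, 73 with scan day as a block, 16 with day 1 alone, and 15 to 102 with an array left out.

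Of 40 differences (10 genes, 4 comparisons) 22 kept their sign in all alternatives and 18 turned. None of the 40 was called in the main fit. With 1 array left out, 32 of the 40 turned or moved by over 1.5 times. The other 8 were Gsr for either fraction and both, Nqo1 for fraction 1 and both, Gclc for fraction 2 and both, and Srxn1 between the fractions. Gclm for fraction 1 turned to 0.10 with scan day as a block, 0.15 with chip lot as a block and 0.09 with day 1 alone, and ran from -0.81 to 0.09 with an array left out; for fraction 2 it ran from -0.39 to 0.57. Between the fractions Gclm turned to 0.01 with scan day as a block and 0.03 with day 1 alone, and ran from -0.93 to 0.03; for both fractions it turned to 0.10, 0.17 with chip lot and 0.07 with day 1 alone, and ran from -0.59 to 0.31. Nfe2l2 for both fractions turned to -0.02 with scan day as a block and -0.10 with day 1 alone, and ran from -0.11 to 0.15. Txnrd1 ran from -0.05 to 0.64 for fraction 1, from -0.09 to 0.60 for fraction 2 and from -0.07 to 0.62 for both, and between the fractions turned to -0.04 with median centring and ran from -0.08 to 0.17. Hmox1 for fraction 1 turned to 0.01 with quantile normalization and with median centring and to 0.05 with chip lot as a block, and ran from -0.11 to 0.06; with day 1 alone it turned to -0.03 for fraction 2 and -0.04 for both, where it ran from -0.01 to 0.08. Between the fractions Keap1 turned to 0.03 with quantile normalization and 0.01 with chip lot as a block, and Ephx1 to -0.05 with quantile normalization and -0.01 with median centring, running from -0.02 to 0.18. Other probe sets of the gene gave -0.57 for fraction 1 and -0.03 for both fractions in Gclc, and between the fractions -0.23 and -0.06 in Srxn1 and -0.01 in Gsr. The cause of these turns was not tested.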
